A study of Drosophila melanogaster with 6 samples.

Results

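The trypsin genes of the Drosophila melanogaster alphaTry locus were examined in late embryos with a mutation of isoform O of the transcription factor gene lola. The 9 genes alphaTry, betaTry, gammaTry, deltaTry, epsilonTry, zetaTry, etaTry, thetaTry and iotaTry were chosen by symbol from 17559 genes counted in each library. Each library was made from polyA RNA of 100 pooled embryos, aged 20 to 22 hours after egg laying at 25 °C. The lola-O mutant group (n = 3) had the genotype lola-O / Df(2R)ED2076, where the labels call lola-O a knockout of isoform O. The control group (n = 3) had the genotype Wild type / Df(2R)ED2076, so every embryo of both groups carried the deficiency. The labels do not say how the 3 samples of a group were separated, so p-values reflect only how far these samples vary, possibly for technical reasons alone.

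Trypsins are secreted serine proteases that cut proteins after lysine and arginine. They are made as inactive precursors by midgut cells and become active in the gut lumen, where they digest food protein. Embryos of this age are close to hatching and have not yet fed. The genes descend from repeated duplication, and several copies are so alike that short reads cannot always be assigned to one of them.

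In the annotation of BDGP6.54 the 9 genes lie on 2R with 4 further trypsin genes, kappaTry, lambdaTry, CG30025 and CG30031. The 13 genes fill 20.7 kb, from 11336840 at the left end of lambdaTry to 11357537 at the right end of iotaTry. Each is annotated as a single exon. From left to right the order is lambdaTry, kappaTry, zetaTry, etaTry, thetaTry, alphaTry, epsilonTry, betaTry, gammaTry, CG30031, CG30025, deltaTry and iotaTry, with 8 genes on the minus strand and 5 on the plus strand. The left end lies 794 kb from the lola locus (2R, 10481894 to 10543291). The mutant and control second chromosomes may differ in sequence near lola as well as at it, and the groups may also differ elsewhere in the genome. The effect of the mutation and that of any such difference, linked or not, cannot be told apart in this design.

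Totals ranged from 16217213 to 20518120 reads per mutant library and from 17480430 to 22759638 per control library. Where a library shows 0 counts, up to 3 remain possible, or 0.132 to 0.188 CPM (the count per 1e6 reads). Values below are CPM scaled by the TMM method. The limit for 0 counts covers counting error only, whereas intervals of log2 fold changes use the edgeR standard error. FBgn0005630, an earlier identifier of lola by background knowledge, had 346, 364 and 338 CPM in mutants 1 to 3, against 402, 412 and 424 CPM in controls 1 to 3. Its log2 fold change was -0.24 (SE 0.029, edgeR adjusted p = 2.73e-10), a fall, but the count sums all isoforms and does not check the loss of isoform O. As befits whole embryos, 6 neuron markers summed to 1372 to 1449 CPM in mutants and 1497 to 1531 CPM in controls, and 8 muscle markers to 29989.6 to 30497 CPM in mutants and 33666 to 33838 CPM in controls. A list of 13 egg shell, yolk and maternal genes, of which 12 were found, summed to at most 0.967 CPM in any mutant library and 0.954 CPM in any control library.

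Of the 9 trypsin genes, 7 had enough reads to test, and 6 of the 7 differed between the groups. The genes zetaTry, etaTry, thetaTry and epsilonTry rose in the mutant, whereas alphaTry and betaTry fell. The test was edgeR's quasi-likelihood F test over 10312 genes with a Benjamini-Hochberg adjusted p below 0.05. By this rule 39.7% of all tested genes were called, 20.2% higher and 19.5% lower in the mutant, so a call alone is common in these libraries. The CPM ranges of the groups were apart for all 7 tested trypsin genes, as they were for 47.8% of all tested genes. None of the 7 changed by at least 2-fold, which 1.62% of tested genes did with a call.

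The gene alphaTry, the name-giving trypsin of the locus (2R, 11344260 to 11345119, minus strand), showed the largest fall among the tested members. It had 115, 109 and 111 CPM in mutants 1 to 3, against 182, 180.0 and 192 CPM in controls 1 to 3. Every mutant library lay far below every control library. Mutants averaged 111 ± 3.05 CPM and controls 185 ± 6.38 CPM (SD, n = 3 each). The log2 fold change was -0.73 (SE 0.034, edgeR adjusted p = 7.61e-29), a fall of 39.5% in level. In absolute log2 fold change, 347 of the 10312 tested genes exceeded it.

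The gene betaTry (2R, 11346325 to 11347395, plus strand), also a trypsin of the midgut, fell by less. Its level was 286, 269 and 275 CPM in mutants 1 to 3, against 311, 309.7 and 323 CPM in controls 1 to 3. The groups were apart, with mutant 1 closest to the controls. The log2 fold change was -0.18 (SE 0.030, edgeR adjusted p = 5.34e-07), and mutants averaged 277 ± 8.61 CPM and controls 315 ± 7.41 CPM (SD, n = 3 each).

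The gene epsilonTry (2R, 11345237 to 11346066, minus strand) lies between alphaTry and betaTry and moved the other way. It was the most abundant member in every library, at 494, 463 and 487 CPM in mutants 1 to 3, against 426, 429 and 429.7 CPM in controls 1 to 3. All mutant libraries were above all controls, and mutant 2 was the closest to them. The log2 fold change was 0.17 (SE 0.028, edgeR adjusted p = 6.96e-07), and mutants averaged 482 ± 16.2 CPM and controls 428 ± 1.84 CPM (SD, n = 3 each). The SD of the controls was 0.43% of their mean, below the 1.06% that counting error alone would give. Their close agreement is thus no measure of precision. With a correction for the transcript-length trend across all genes, this rise was 0.095 (edgeR adjusted p = 0.00303). The correction lowered the log2 fold change of every tested trypsin of the cluster, to -0.80 for alphaTry and 0.596 for thetaTry. Rises thus became smaller and falls larger.

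The gene thetaTry (2R, 11341714 to 11342760, minus strand) had the largest rise of the members. Its level was 101, 96.4 and 99.0 CPM in mutants 1 to 3, against 62.1, 66.0 and 58.2 CPM in controls 1 to 3. The lowest mutant library was well above the highest control library. Mutants averaged 98.7 ± 2.18 CPM and controls 62.1 ± 3.91 CPM (SD, n = 3 each). The log2 fold change was 0.67 (SE 0.041, edgeR adjusted p = 1.44e-22), a level 58.6% higher in the mutant, and 415 tested genes had a larger absolute change.

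Its neighbours zetaTry (2R, 11339186 to 11340132) and etaTry (2R, 11340513 to 11341423), both on the minus strand, rose by smaller amounts. The level of zetaTry was 129.6, 126 and 127 CPM in mutants 1 to 3, against 102, 103 and 98.0 CPM in controls 1 to 3. The groups were clearly apart, and the log2 fold change was 0.33 (SE 0.035, edgeR adjusted p = 2.08e-12). The level of etaTry was 26.5, 25.8 and 24.3 CPM in mutants 1 to 3, against 21.4, 21.3 and 19.2 CPM in controls 1 to 3. Its groups were also apart, and the log2 fold change was 0.30 (SE 0.066, edgeR adjusted p = 1.30e-04).

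The gene iotaTry (2R, 11356720 to 11357537, plus strand), at the right end of the cluster, had the lowest level of the tested members and did not pass the test. It had 12.1, 12.0 and 12.1 CPM in mutants 1 to 3, against 13.5, 14.1 and 12.5 CPM in controls 1 to 3. The ranges did not overlap, but the gap between mutant 1 and control 3 was small. The SD of the mutants was 0.46% of their mean, below the 6.68% that counting error alone would give. The separation of the ranges therefore carries little weight for this gene. The log2 fold change was -0.15 (SE 0.086, edgeR adjusted p = 0.150), with a 95% interval of -0.32 to 0.013. With the transcript-length correction it was -0.23 and passed (edgeR adjusted p = 0.0303).

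**Figure D1:**
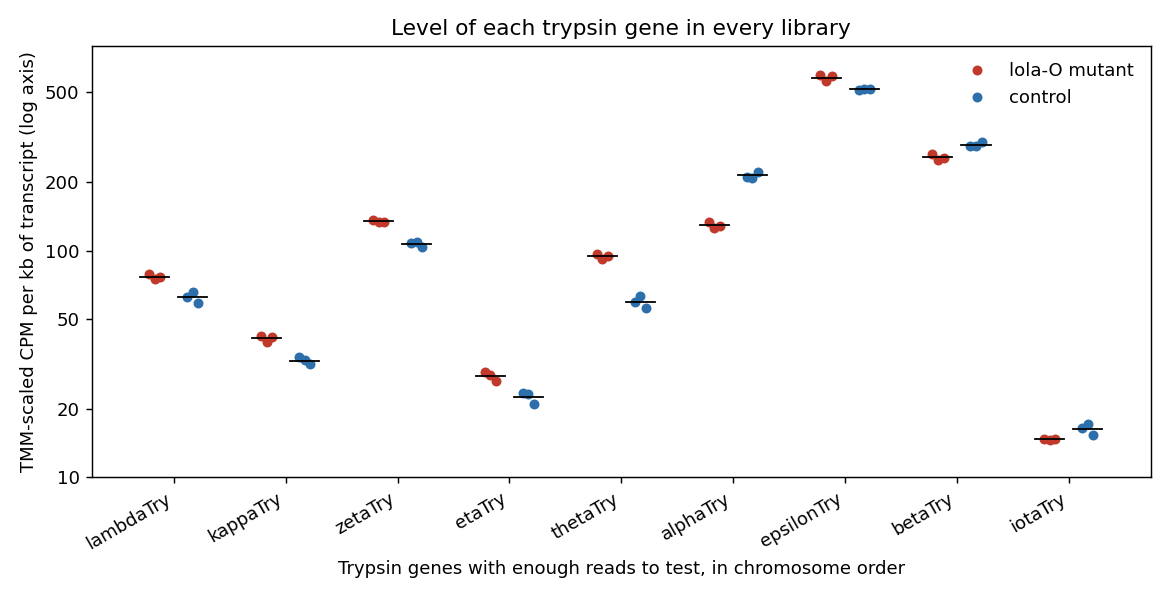
Level of the 9 testable trypsin genes in CPM per kb of transcript on a log axis, in chromosome order, with each point a library and each black line the mean of 3. In thetaTry all mutant libraries lie above all controls, and in alphaTry all lie below them.

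The remaining members, gammaTry and deltaTry, had almost no reads. The gene gammaTry (2R, 11349061 to 11349870) had a count of 0 in all 6 libraries, and deltaTry (2R, 11355319 to 11356128) had 1 count in mutant 1 and 3 in control 3. Their neighbours CG30025 and CG30031 had 10 and 4 counts over all 6 libraries. Together the 4 genes held 3, 3 and 4 counts in mutants 1 to 3, against 2, 3 and 3 counts in controls 1 to 3. Their annotated spans are nearly equal, at 810 bases for gammaTry, deltaTry and CG30025 and 811 for CG30031, and gammaTry and deltaTry are known as near-identical copies. How multi-mapping reads were handled is not given in the sources used here. The counts near 0 therefore cannot be read as absence of these transcripts, and no difference between the groups was detectable at these counts. The right end of deltaTry also overlaps CG13202 on the opposite strand by 15 bases, and no other gene of the cluster overlaps an annotated gene.

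The 2 further cluster genes with enough reads, kappaTry and lambdaTry, also encode trypsin-like proteases and both rose. The gene lambdaTry (2R, 11336840 to 11337791, plus strand) had 75.4, 71.6 and 72.5 CPM in mutants 1 to 3, against 59.6, 62.5 and 55.7 CPM in controls 1 to 3. Its log2 fold change was 0.30 (SE 0.043, edgeR adjusted p = 3.33e-08), and the groups were apart. The gene kappaTry (2R, 11337797 to 11338733, minus strand) had 39.2, 37.0 and 38.9 CPM in mutants 1 to 3, against 31.6, 30.8 and 29.5 CPM in controls 1 to 3. The groups were apart here too, and the log2 fold change was 0.32 (SE 0.055, edgeR adjusted p = 1.28e-06).

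Along the chromosome, the tested genes at the left end all rose, whereas directions were mixed in the middle of the cluster. The left group was drawn after the changes were seen, so its shared direction is a description and not a test. The 5 leftmost genes, lambdaTry to thetaTry, span 5.92 kb and all rose, by 0.30 to 0.67 on the log2 scale. A gap of 1499 bases separates thetaTry from alphaTry. From there, alphaTry fell, epsilonTry rose and betaTry fell, although only 117 bases lie between alphaTry and epsilonTry and 258 bases between epsilonTry and betaTry. Strand did not sort the directions either: alphaTry and epsilonTry are both on the minus strand, and betaTry and the risen lambdaTry are both on the plus strand.

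**Figure D2:**
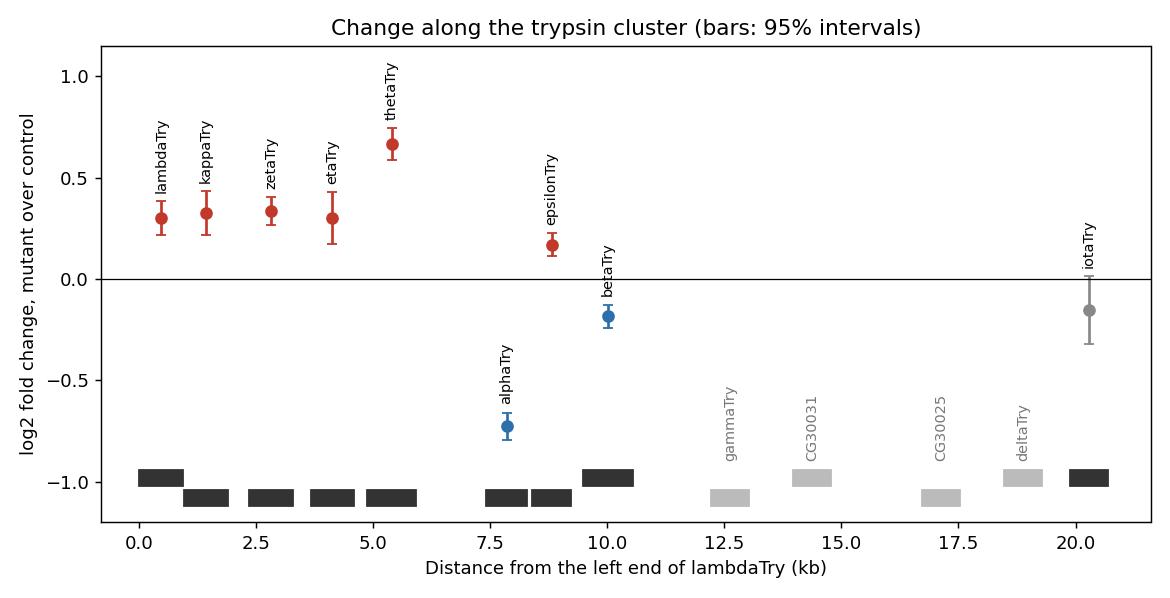
Log2 fold change (mutant over control) against distance in kb from the left end of lambdaTry, with bars for 95% intervals; boxes mark the genes, plus strand above minus strand, and grey boxes the 4 genes with too few reads. Red genes rose, blue genes fell and iotaTry, in grey, did not pass; the 5 genes at the left all rose.

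Ratios within a library do not depend on the scaling between libraries. The raw count of alphaTry over that of epsilonTry was 0.232, 0.234 and 0.228 in mutants 1 to 3, against 0.427, 0.419 and 0.446 in controls 1 to 3. The ratio of betaTry to epsilonTry averaged 0.574 ± 0.00806 in the mutants and 0.734 ± 0.0157 in the controls (SD, n = 3 each). That of thetaTry to alphaTry averaged 0.886 ± 0.00721 in the mutants and 0.337 ± 0.0319 in the controls (SD, n = 3 each). In the mutants, counting error alone was 2.33% of the thetaTry count and 2.19% of the alphaTry count. Relative to its mean, the SD of their ratio in the mutants lay below that error and is no measure of precision. The groups were apart in all 3 ratios. These pairs were chosen after the changes of their genes were seen, so the ratios are a description and not a further test.

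The summed level of the 9 genes hardly differed, although its make-up did. The sum was 1164, 1101 and 1135 CPM in mutants 1 to 3, against 1118, 1124 and 1133 CPM in controls 1 to 3, and the ranges overlapped. Mutants averaged 1134 ± 31.2 CPM and controls 1125 ± 7.56 CPM (SD, n = 3 each). Of the reads of the 9 genes, alphaTry took 9.83% ± 0.0504 in the mutants and 16.4% ± 0.475 in the controls (SD, n = 3 each). The share of thetaTry was 8.71% ± 0.0497 in the mutants and 5.52% ± 0.370 in the controls, and that of epsilonTry 42.5% ± 0.417 in the mutants and 38.1% ± 0.135 in the controls. Counting error alone was 2.19% of the alphaTry count and 2.33% of the thetaTry count in the mutants. Relative to their means, the SDs of these 2 shares in the mutants lay below that error and are no measure of precision. Shares sum to 100%, so the fall of one raises the others. In bulk RNA of whole embryos, fewer cells of a type and less RNA per cell cannot be told apart.

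**Figure D3:**
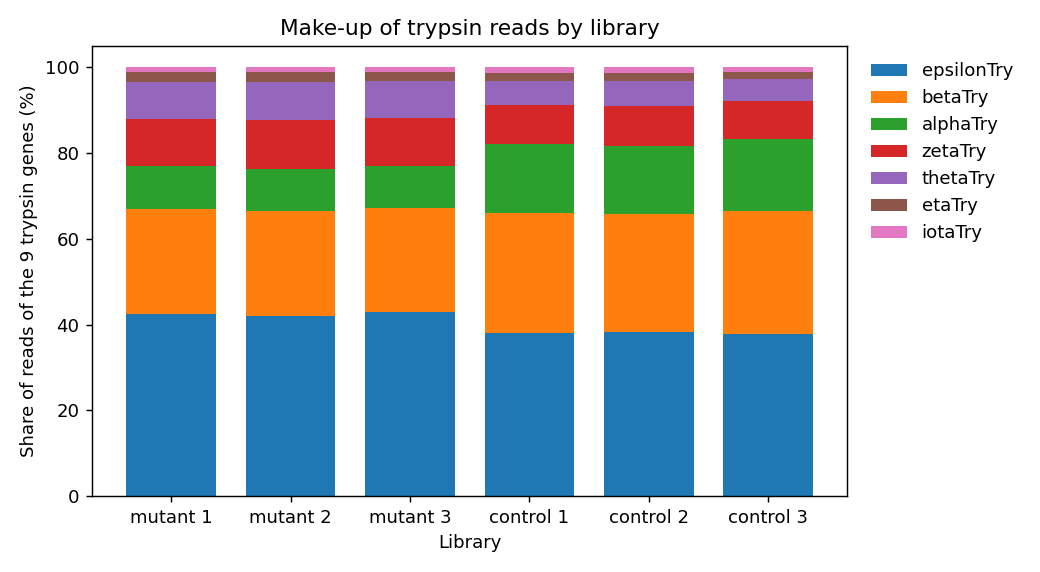
Share of the reads of the 9 trypsin genes (%) taken by each gene in each library; gammaTry and deltaTry are too rare to be drawn. The alphaTry band is narrower in the 3 mutants, at 9.77% to 9.87%, than in the 3 controls, at 16.0% to 16.9%.

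Per kb of transcript, the order of the genes was the same at the top and the bottom in both groups and differed in between. Levels in the mutants were 580.4 CPM per kb for epsilonTry, 258 for betaTry, 135 for zetaTry, 129.6 for alphaTry, 94.3 for thetaTry, 76.8 for lambdaTry, 41.0 for kappaTry, 28.0 for etaTry and 14.7 for iotaTry. Levels in the controls were 516 CPM per kb for epsilonTry, 294 for betaTry, 215 for alphaTry, 107 for zetaTry, 62.3 for lambdaTry, 59.3 for thetaTry, 32.7 for kappaTry, 22.6 for etaTry and 16.3 for iotaTry. Neighbours in the order had separate ranges over the 3 libraries of a group, except lambdaTry and thetaTry in the controls. In the mutants, zetaTry and alphaTry were close: the lowest zetaTry library stood at 133.5 and the highest alphaTry library at 133.4 CPM per kb.

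The genes that flank the cluster were compared by the same fit, which called 20.2% of all tested genes higher and 19.5% lower. Of 30 annotated genes starting within 50 kb on either side of the cluster, 20 were tested, of which 4 rose, 3 fell and 13 did not pass, with a median log2 fold change of 0.061 against 0.0010 over all tested genes. The called genes with the smallest adjusted p were san, which encodes an acetyltransferase of sister chromatid cohesion, at 0.26, Tapdelta of the translocon at 0.18 and nompA of mechanosensory organs at -0.25. They were followed by CG42336 at 0.14, CG12384 at -0.23 and Sod3, an extracellular superoxide dismutase gene, at 0.13. Their edgeR adjusted p values were 0.00844 or less. CG12384 is the nearest tested gene beyond iotaTry. The log2 fold change of iotaTry, -0.15, did not pass (edgeR adjusted p = 0.150), so no shared direction can be read from this pair. Within 100 kb, 40 genes were tested, of which 12 rose and 9 fell.

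Other genes of protein digestion also moved in both directions. Over all tested genes, 20.2% were called higher and 19.5% lower. The Jonah genes encode chymotrypsin-like and related serine proteases of the larval midgut. All 16 were tested, of which 7 rose and 6 fell, with a median log2 fold change of 0.088; DESeq2 called 3 of them lower. Jon44E rose by 0.91, Jon25Biii by 0.28, Jon99Fi by 0.27 and Jon99Ci by 0.29 (edgeR adjusted p of 1.15e-11 or less). Their summed level was 5424 to 5673 CPM in mutants and 5053 to 5083 CPM in controls. Of 7 other digestive or lysosomal proteases tested, 2 rose and 4 fell (median -0.24). Without mutant 1, 2 or 3 or control 1 or 2, and also by DESeq2, with no low-count filter or with the transcript-length correction, 1 rose. Among them yip7 had a log2 fold change of -0.27, the aspartyl protease gene cathD 0.38, the cathepsin gene CtsL1 -0.24 and Bace -0.39.

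Genes of sugar and lipid digestion ranged from -1.41 to 0.82 on the log2 scale, against -0.73 to 0.67 for the fewer trypsin genes. Apart from mag, the lowest was Mal-B2 at -0.81. Of 21 such genes tested, 11 rose and 7 fell, beside 20.2% higher and 19.5% lower over all tested genes. The median log2 fold change was 0.25. The maltase gene Mal-A1 rose by 0.82, and the lysosomal-type mannosidase genes LManVI and LManV rose by 0.67 and 0.51. The gene mag, which encodes the gut lipase Magro, had -1.41 (SE 0.079, edgeR adjusted p = 1.27e-24). Of 5 tested lysozyme genes, 3 rose and 1 fell (median 0.11), with LysS at -0.33, LysC at 0.33, LysE at 0.24 and LysB at 0.11. With the transcript-length correction, 1 lysozyme gene rose. The annotated spans of LysC and LysD overlap at 1210717 to 1210726 on 3L, on opposite strands. Whether counting used strand and how multi-mapping reads were handled is unknown. The assignment of reads among the lysozyme genes was not tested. Of 9 tested genes of mucins and the peritrophic matrix, which lines the gut, 2 rose and 3 fell (median -0.21). Mur18B had -0.21, Mur29B -0.28, Peritrophin-15b 0.22 and Muc55B 0.12.

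Markers of the midgut cells that make trypsins also differed slightly. By the same test, 39.7% of all tested genes were called. Of 14 markers of midgut enterocytes and their regulators, all tested, 5 rose and 4 fell, with a median log2 fold change of -0.028. Without mutant 1, 2 of them fell, and with the transcript-length correction 1 fell. Their summed level was 1218 to 1242 CPM in mutants and 1163 to 1178 CPM in controls, and none was at 0. The enterocyte gene mex1 rose by 0.28, the brush border myosin gene Myo61F by 0.21 and the alkaline phosphatase gene Alp10 by 0.21. Alp4 had -0.24, but it also stands in the list of hindgut and Malpighian tubule genes, so it is not particular to the midgut list. The part of midgut cell number or state in the trypsin differences was not tested. The summed marker level and the levels of thetaTry, zetaTry, etaTry and epsilonTry were higher in the mutants, whereas those of alphaTry and betaTry were lower.

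**Figure D4:**
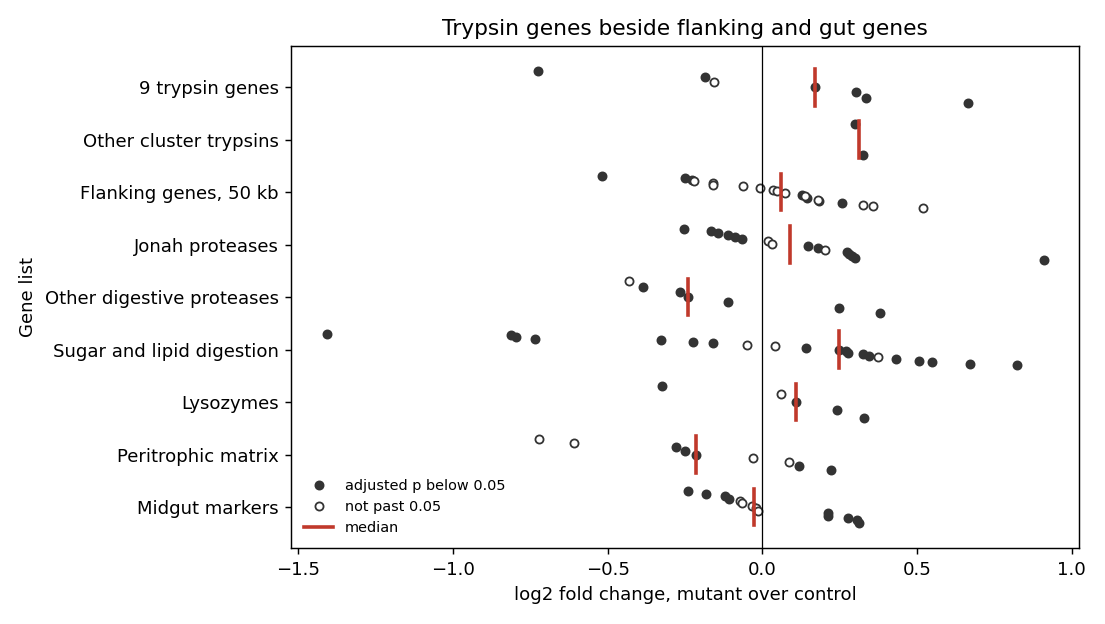
Log2 fold change (mutant over control) of each tested gene, by list; filled points have an edgeR adjusted p below 0.05 and red bars are medians. The trypsin genes range from -0.73 for alphaTry to 0.67 for thetaTry, and the gut lists also hold changes of both signs.

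The genes most like epsilonTry, the most abundant member, over the 6 libraries were found by the root mean square difference of centred log2 CPM among 7098 genes with at least 10 CPM. They were CG11722 (0.0091), Naa15-16 (0.012), Phb2 (0.012), Ahcy (0.014) and CIAPIN1 (0.015), on 4 chromosome arms or chromosomes, 3R, X, 2R and 2L. CG11722 averaged 15.2 CPM and CIAPIN1 26.0 CPM, levels at which counting error exceeds such small differences. The order among the closest genes therefore carries no meaning. With 2 groups, this measure mostly ranks genes by how close their change is to that of epsilonTry.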

How the data were processed

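PolyA RNA was measured in 6 libraries, 3 of lola-O mutant and 3 of control embryos, grouped by the titles and genotypes of the labels. Against these, the descriptions number every control as replicate 1, and the extract protocol speaks of mutant embryos for all 6 samples. The deposited files hold whole-number counts of reads for each FlyBase gene identifier, not normalized. The build was BDGP6 and the tools included bedtools 2.25.0, SAMtools 1.3.1, Subread 1.5.1 and STAR 2.5.2b, per the submitters' processing notes. What each tool did, whether counting used strand, how multi-mapping reads were handled and which annotation release served is not given in the sources used here. Symbols, positions and transcript lengths came from the Ensembl annotation of BDGP6.54, in which 17253 of 17559 identifiers matched; genes of the lists that were not found were left out.

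The test was that of edgeR 4.0.16 under R 4.3.3 (TMM, filterByExpr by group, robust quasi-likelihood fits, 2-sided, Benjamini-Hochberg adjustment over 10312 genes). The standard error was taken as the absolute log2 fold change over the root of F. No pair of replicates agreed within sampling noise (chi-square over its degrees of freedom, 1.94 to 6.14). The closest pairs were controls 1 and 2 at 1.94 and mutants 2 and 3 at 2.00. Pairs with control 3 gave 4.04 and 6.14, and pairs with mutant 1 gave 5.64 and 6.03. The reason was not tested. The procedure was tested on simulated data. The alternatives were other scalings and filters, DESeq2 1.42.0, limma-voom (limma 3.58.1), a replicate block, a loess correction for transcript length and each library left out. The members, lists and naming rule (all cluster trypsins, up to 4 called genes with the smallest adjusted p per list and 6 in the flanking window) were chosen with earlier results of these data known. The flanking window was measured from the outermost of the 13 cluster genes.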

Additional observations from a re-analysis of the deposited data

How the results depend on the processing

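The log2 fold changes of the 9 testable cluster trypsins were recomputed under 14 alternatives. Of the 126 values, 125 kept their direction and their side of the threshold. The exception was iotaTry, which passed with the transcript-length correction at -0.23 (edgeR adjusted p = 0.0303), a correction that changes values by length alone. Without single libraries iotaTry ranged from -0.195 to -0.11. Over all alternatives alphaTry ranged from -0.80 to -0.70, betaTry from -0.25 to -0.16, epsilonTry from 0.095 to 0.20, zetaTry from 0.26 to 0.36, etaTry from 0.23 to 0.34 and thetaTry from 0.596 to 0.72. Each of the scalings moved the median of all genes by 0.0043 or less. Genes called over all genes ranged from 1529 to 2132 higher and from 1444 to 2025 lower. The replicate numbers of the titles did not pair the libraries: deviations of same-numbered libraries correlated at 0.023, -0.028 and 0.041. With the replicate block, alphaTry was -0.73 and iotaTry -0.15, with 2083 genes called higher and 1994 lower, and it changed no call of the cluster trypsins. Summing gammaTry, deltaTry, CG30025 and CG30031 gave 18 counts, too few to test. For the gene lists and the flanking window, 388 of 422 counts stayed within 1.5 times the reported count. These include counts of 0 that stayed 0, such as those of the egg shell, yolk and maternal list, which had 0 tested genes. Low expression of gammaTry, deltaTry, CG30025 and CG30031 and the unknown handling of multi-mapping reads cannot be told apart.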

Other observations

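Gene lists named for other tissues were read from the same fit as the trypsin genes. In RNA of whole embryos, the tissue that gave the reads of a gene is not known. Genes of these lists may also be expressed elsewhere, so their changes are not assigned to the named tissue. By that fit, 20.2% of all tested genes were called higher and 19.5% lower. Of 10 tested genes of the enteroendocrine list, pros and CCHa2 fell and the others did not pass. Without mutant 2, mutant 3 or control 1, and by DESeq2, 1 of them fell. Without mutant 1, 1 gene of the list rose, and with a filter of 5 CPM in 3 samples 2 rose. Of 10 hindgut and Malpighian tubule genes tested, 6 fell. Among them were Alp4, Irk2, Vha16-1 and Irk3 at -0.24, -0.20, -0.10 and -0.27 on the log2 scale. Alp4 is also counted with the midgut markers. With the transcript-length correction 1 gene of this list rose. Of 7 salivary gland genes, Papss rose by 0.16 and fkh had -0.27; no gene of the list rose by the test without mutant 1 or control 3, nor by DESeq2. Of 4 tested fat body genes, Lsd-1 had -0.45, apolpp -0.14 and Lsp1gamma 1.93. Lsp1gamma lies below the filter of 5 CPM, and with the transcript-length correction 2 fat body genes rose and 1 fell. Of 6 tested neuron genes, 5 fell, among them cac, brp, Syx1A and elav by 0.16 to 0.19; with the transcript-length correction 1 fell and 1 rose. Of 8 tested muscle genes, 4 fell (bt, sls, Mhc and Act57B) and 1, up, rose by 0.06. The rise of up did not pass without mutant 1, mutant 2, control 1 or control 3, nor by DESeq2.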
